A study of Mus musculus with 6 samples.

Results

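The axon guidance ligands and receptors were followed in the RNA of cultured neural stem cells (NSCs) from mice with a conditional knockout of miR-151 (cko) and from control mice (ctrl). The members are defined by their gene symbols, as the semaphorins, plexins, neuropilins, ephrins, Eph receptors, Slits, Robos, netrins, *Dcc* and the Unc5 receptors, 69 of the 32493 genes counted. All cells came from the region of the lateral ventricles of mouse embryos at E14.5 and were grown as NSCs for 3 generations before RNA was taken. In cko embryos the miR-151 alleles were floxed, at a site that lies in an intron of *Ptk2*, and were combined with Emx1-IRES-Cre, a driver active in the dorsal telencephalon. The ctrl embryos, called wt in the sample labels, carried the same floxed alleles without Cre. A cell outside the reach of the driver would keep the miRNA in the cko cultures. Of the 3 ctrl and 3 cko columns deposited, that of ctrl replicate 2 held, rounded up, the average of the columns of ctrl replicates 1 and 3 in 32493 of 32493 genes. It was therefore left out, and 2 ctrl libraries were compared with 3 cko libraries. No label says that the libraries came from separate embryos, so that p-values measure the spread between these libraries, which may be technical.

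Axon guidance molecules steer growing processes and migrating cells by attraction or repulsion. Secreted or membrane-bound ligands bind receptors on the moving cell, whose cytoplasmic parts act on the actin skeleton through small GTPases. Semaphorins act through plexins, in the case of most class 3 members together with a neuropilin, while ephrins act on Eph receptors, Slits on Robos, and netrins on DCC and UNC5. In the embryonic cortex the same molecules also act on progenitors, on blood vessels and on cells of the oligodendrocyte lineage.

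The genes *Sema3c*, *Nrp2* and *Plxnd1*, whose products can work in 1 signalling complex, moved in different directions. Their promoter windows are shown here because *Nrp2* had the largest rise and *Plxnd1* the largest fall among the plexins and neuropilins, and *Sema3c* was the only semaphorin that rose. SEMA3C is a secreted ligand that binds neuropilins, and plexin D1 is a receptor that can pair with them. Each window runs 5′ to 3′ on the strand of the gene from 250 bases before its RefSeq start to 50 bases after it (GRCm38.p6). Capitals mark matches, on either strand, to the GC box GGGCGG, a site for SP and KLF factors. The windows lie at chr1:62703067-62703366 on the plus strand for *Nrp2*, at chr5:17574566-17574865 on the plus strand for *Sema3c* and at chr6:115994956-115995255 on the minus strand for *Plxnd1*.
Nrp2: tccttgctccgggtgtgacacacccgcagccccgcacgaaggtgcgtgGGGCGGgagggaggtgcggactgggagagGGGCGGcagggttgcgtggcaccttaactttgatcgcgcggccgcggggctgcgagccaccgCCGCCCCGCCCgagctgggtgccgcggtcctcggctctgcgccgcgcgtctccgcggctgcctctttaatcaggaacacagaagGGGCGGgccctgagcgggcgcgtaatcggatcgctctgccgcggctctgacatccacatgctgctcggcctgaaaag
Sema3c: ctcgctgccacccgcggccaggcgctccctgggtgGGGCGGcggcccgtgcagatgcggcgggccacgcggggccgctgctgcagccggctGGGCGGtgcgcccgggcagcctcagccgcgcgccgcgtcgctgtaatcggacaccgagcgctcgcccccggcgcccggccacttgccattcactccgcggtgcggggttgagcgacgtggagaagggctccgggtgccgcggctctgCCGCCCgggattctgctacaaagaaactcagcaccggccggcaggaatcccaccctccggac
Plxnd1: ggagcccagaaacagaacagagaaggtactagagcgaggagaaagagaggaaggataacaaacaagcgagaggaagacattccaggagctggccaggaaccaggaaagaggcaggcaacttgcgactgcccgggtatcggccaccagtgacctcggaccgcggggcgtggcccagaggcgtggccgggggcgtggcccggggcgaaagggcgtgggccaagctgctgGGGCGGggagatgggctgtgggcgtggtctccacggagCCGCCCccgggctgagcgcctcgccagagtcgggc

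The *Nrp2* window held 5 GC boxes, of which 2 share 1 base, the *Sema3c* window 3 and the *Plxnd1* window 2. None of these 3 windows held the core RBPJ motif TGGGAA, the SOX motif AACAAT or the E-box CAGCTG. RefSeq windows were at hand for 59 of the 69 members, 75 windows in all. Among these, 70.7% held a GC box, against 60.8% of the windows of all genes tested and 35.7% of all windows, at a median GC content of 64.3%, 60.7% and 52.7%. The RBPJ core stood in 22.7% of the members' windows, against 23.2% for genes tested and 25.6% for all windows. The SOX motif stood in 3 of the 75 windows and the E-box in 12, 4.0% and 16.0%, against 6.01% and 15.6% for genes tested and 10.7% and 16.3% for all windows. Counted by gene, a GC box stood in 44 of the 59 members and in 7668 of the 11295 tested genes with windows. All 6 members that rose, with 1 window each, had a GC box, as did 10 of the 12 members that fell, in 13 of their 19 windows. The median GC content of these windows was 69.8% for members that rose and 59.7% for those that fell. A match says only that the letters are there.

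The 5 libraries held between 17883796 and 23335736 counts. A limit of 3 counts, set by choice, came to between 0.129 and 0.168 CPM (counts relative to library size, after TMM normalization). This limit covers counting error only. All 15 NSC markers were tested, of which 4 were higher and 3 lower in cko NSCs, with summed levels of 7890 to 9034 CPM in ctrl and 9355 to 10116 in cko libraries. Of 9 endothelial markers in the table *Cdh5* was at 0 and the sum was at most 8.73 CPM in any library, and of 10 microglial markers *Cx3cr1*, *Itgam*, *Tmem119* and *Trem2* were at 0. Of 12 tested neuron markers 3 were higher (*Syt1*, *Elavl4* and *Syn1*) and 1 was lower (*Dcx*, at a log2 fold change of -1.51), with sums of 1307 and 1383 CPM in ctrl and 1475 to 1535 in cko libraries. Of 16 tested oligodendrocyte lineage markers, 11 were lower and 2 higher in cko NSCs, and their sum lay at 4416 and 5092 CPM in ctrl and 3882 to 3998 in cko libraries. Of 14 astrocyte markers 10 were lower and none was higher, with sums of 6411 and 7715 CPM in ctrl and 2504 to 4318 in cko libraries. *Xist*, which is transcribed from the inactive X chromosome, lay at 2889 and 2557 CPM in ctrl and 787 to 894 in cko libraries, while the Y-linked *Kdm5d* lay at 25.1 and 27.0 against 67.6 to 69.1 CPM. The mix of male and female cells and the genotype cannot be told apart. The part of neuronal and glial content in the results below was not tested. In bulk RNA, fewer cells of a type and less RNA in each cell cannot be told apart.

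After the filter on low counts 63 of the 69 members were tested among 16710 genes in all. The test was the quasi-likelihood test of edgeR, adjusted after Benjamini-Hochberg over all 16710 genes, and a gene was called where its adjusted p was under 0.05. Differences are given as log2 fold changes of cko over ctrl (log2FC), with a standard error worked out from the F statistic of this test. By this rule 19 members were called, against 16.4% of all genes tested. In cko NSCs 6 members were higher, against 7.86% of all genes tested, and 13 were lower, against 8.57%. The share among members was thus 30.2% in either direction. The median log2FC of the 63 members was -0.15, with 37 below 0, and the median of all tested genes was -0.0026. Of the 32 tested ligands 9 were called, and of the 31 tested receptors 10. At the threshold used in the study, which asks for a log2FC beyond 0.9 and a raw p under 0.01, 2 members were higher and 10 lower, against 2.39% and 4.17% of all genes tested. Values of the 2 genotypes did not overlap in 34 of the 63 members, to be read against 49.7% of all genes tested. The members that passed came from 6 of the 8 families, since no ephrin and no Slit was called.

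**Figure D1:**
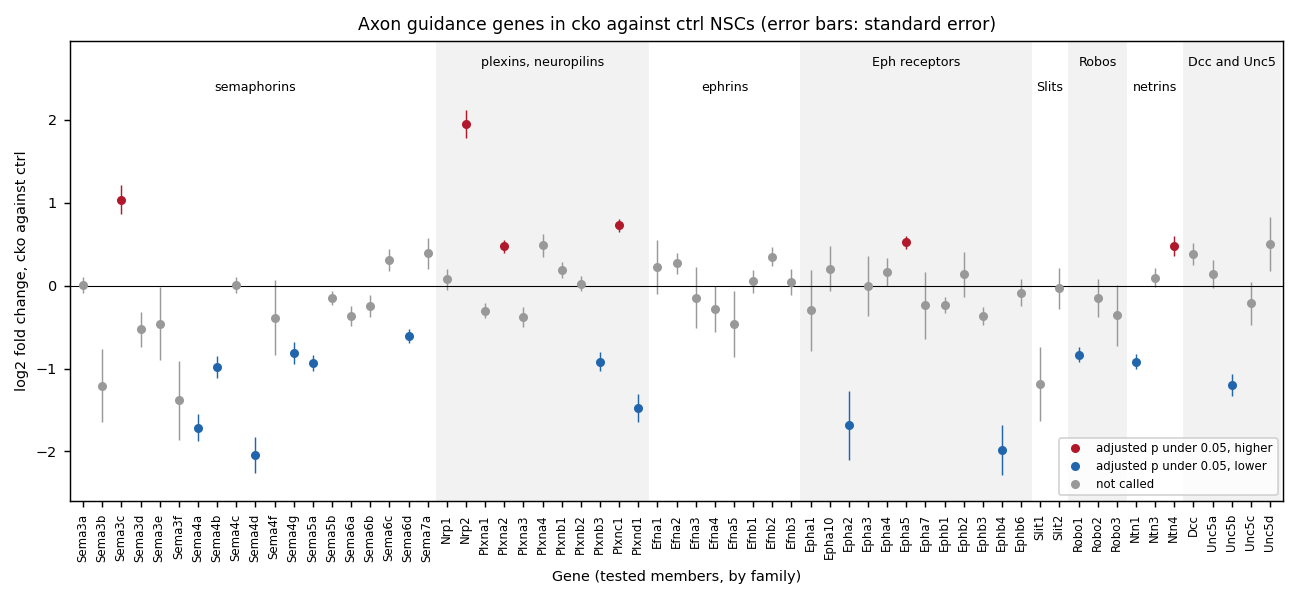
The log2FC of cko against ctrl NSCs (vertical axis) for each of the 63 tested members, grouped by family along the horizontal axis, with bars for the standard error. The 6 members called higher are red, the 13 called lower are blue and the others grey, and *Nrp2* at 1.95 and *Sema4d* at -2.05 are the extremes.

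In the semaphorins, the largest family, 36.8% of tested members were called, against 45.5% of plexins and neuropilins and 66.7% of the 3 netrins tested. Semaphorins had the most calls by number, 7 of 19 tested, and 6 of the 7 fell. Of these calls 4 were in class 4, the transmembrane semaphorins that act mainly through B-type plexins and plexin D1. Of the 6 class 4 genes *Sema4a*, *Sema4b*, *Sema4d* and *Sema4g* fell and none rose. *Sema4d* (ENSMUSG00000021451, chromosome 13, 51685529 to 51793747 in GRCm38), a ligand of plexin B1, was measured at 16.7 and 13.5 CPM in ctrl and at 4.48, 2.83 and 3.72 CPM in cko libraries. Each cko library lay below both ctrl libraries, by 4.13-fold in the fit (log2FC -2.05, standard error 0.22, adjusted p = 0.00229 in edgeR). *Sema4a* (ENSMUSG00000028064, chromosome 3, 88435959 to 88461182) lay at 11.3 and 11.8 CPM in ctrl and at 3.58, 3.47 and 3.54 CPM in cko libraries. The 3 cko libraries were nearly equal for this gene, and the fall was 3.28-fold (log2FC -1.71, standard error 0.16, adjusted p = 0.00159 in edgeR).

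*Sema4b* was read at 50.5 and 69.5 CPM in ctrl and at 31.9, 29.2 and 29.8 CPM in cko libraries. Its log2FC was -0.98 (adjusted p = 0.00501 in edgeR), although the ctrl libraries stood apart from each other. *Sema4g*, a ligand of plexin B2, lay at 79.2 and 87.3 CPM in ctrl and at 40.5, 46.1 and 55.9 CPM in cko libraries. Its log2FC was -0.81 (adjusted p = 0.00891 in edgeR), and the adjusted p was 0.0536 without cko library 2. *Sema4c*, the other class 4 gene with many reads, lay at 38.3 and 35.1 CPM in ctrl and at 33.9, 39.0 and 37.8 CPM in cko libraries, which overlapped (log2FC 0.01, standard error 0.10). *Sema4f* (-0.39) had at most 26 counts in a library and was not called. Summed over the 6 genes and divided by exon length, class 4 came to 30.9 and 34.1 CPM per kb in ctrl and to 19.1, 20.2 and 21.2 CPM per kb in cko libraries.

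Among the semaphorins of class 5 and class 6, 1 gene each was called, and both fell. Per kb of exon, *Sema6d* stood at place 4 of all members in ctrl NSCs and *Sema5a* at place 30. *Sema6d*, a transmembrane ligand of plexin A1, had the highest CPM of the family, with 341 and 355 CPM in ctrl and 246, 218 and 219 CPM in cko libraries. The groups stood clear of each other at a modest change (log2FC -0.61, standard error 0.08, adjusted p = 0.00463 in edgeR). *Sema5a*, a semaphorin with thrombospondin repeats that binds plexin B3, lay at 80.3 and 72.6 CPM in ctrl and at 43.7, 38.5 and 37.9 CPM in cko libraries, with a log2FC of -0.93 (adjusted p = 0.00201 in edgeR). Its paralog *Sema5b* had a log2FC of -0.15 (adjusted p = 0.269 in edgeR). *Sema6a* (-0.37) had an unadjusted p under 0.05 and missed the adjusted threshold, while *Sema6b* (-0.25), *Sema6c* (0.31) and *Sema7a* (0.39) missed both.

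The secreted class 3 semaphorins held the single rise of the family. *Sema3c* (ENSMUSG00000028780, chromosome 5, 17574281 to 17730268) lay at 4.06 and 4.86 CPM in ctrl and at 8.95, 9.43 and 9.01 CPM in cko libraries. All 3 cko libraries were above both ctrl libraries, a 2.05-fold rise (log2FC 1.04, standard error 0.17, adjusted p = 0.00919 in edgeR). Without cko library 2 or 3 the adjusted p was 0.0610 or 0.0575, at log2FCs of 1.00 and 1.04. *Sema3f* (-1.38), *Sema3b* (-1.21) and *Sema3d* (-0.53) had unadjusted p-values from 0.0214 to 0.0407 and adjusted p-values from 0.0903 to 0.135 in edgeR. The value of *Sema3b* was -0.23 without ctrl library 1 (adjusted p = 0.678 in edgeR) and -1.77 without ctrl library 3 (adjusted p = 0.00245 in edgeR), and that of *Sema3f* was -2.02 without cko library 2. *Sema3a*, the class 3 gene with the most reads, had a log2FC of 0.01 with a standard error of 0.10. *Sema3e* (-0.46) had at most 35 counts in a library.

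Among the receptors of semaphorins, *Nrp2* showed the largest change of any member in the upward direction. NRP2 is a coreceptor for class 3 semaphorins and for VEGF. *Nrp2* (ENSMUSG00000025969, chromosome 1, 62703285 to 62818695) lay at 30.6 and 34.5 CPM in ctrl and at 101, 127 and 148 CPM in cko libraries. The lowest cko library was well above the higher ctrl library, and the rise was 3.85-fold (log2FC 1.95, standard error 0.17, adjusted p = 0.00109 in edgeR). Its paralog *Nrp1* lay at 24.5 ± 2.67 (SD, n = 2) CPM in ctrl and 25.7 ± 2.49 (SD, n = 3) in cko, and its log2FC was 0.07 (standard error 0.13). Per kb of exon, the ratio of *Nrp2* to *Nrp1* was 0.961 and 1.26 in ctrl and 3.59, 4.10 and 4.32 in cko libraries. The neuropilins thus lay at like levels in ctrl NSCs, while *Nrp2* was the higher in every cko library.

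The plexins divided. *Plxnc1*, the receptor of SEMA7A, rose from 53.1 and 55.9 CPM in ctrl to 89.7, 86.9 and 93.7 CPM in cko libraries (log2FC 0.73, standard error 0.08, adjusted p = 0.00229 in edgeR). *Plxna2*, a receptor of SEMA6A and, with neuropilins, of class 3 semaphorins, rose from 65.2 and 68.1 CPM to 89.1, 95.5 and 92.5 CPM (log2FC 0.47, adjusted p = 0.00781 in edgeR). Both groups were tight for these 2 genes, but *Plxna2* had an adjusted p of 0.0599 without cko library 2 and of 0.0561 without cko library 3. *Plxna4*, which was not called, had a log2FC of 0.48 (adjusted p = 0.0523 in edgeR). The other A-type plexins, *Plxna1* (-0.30) and *Plxna3* (-0.38), lay on the other side of 0, with adjusted p-values of 0.0607 and 0.0689 in edgeR.

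*Plxnd1* and *Plxnb3* fell. *Plxnd1* (ENSMUSG00000030123, chromosome 6, 115954811 to 115995005), the receptor of SEMA3E that also takes part in SEMA3C and SEMA4A signalling, lay at 91.7 and 63.4 CPM in ctrl and at 23.9, 29.3 and 30.3 CPM in cko libraries. The ctrl libraries differed, yet the lower of them was above every cko library, and the fall was 2.78-fold (log2FC -1.48, standard error 0.17, adjusted p = 0.00265 in edgeR). *Plxnb3*, a receptor of SEMA5A on the X chromosome (ENSMUSG00000031385, 73757090 to 73772514), lay at 215 and 214 CPM in ctrl and at 100, 108 and 132 CPM in cko libraries, a log2FC of -0.92 (adjusted p = 0.00378 in edgeR). The mix of the sexes differed in the same libraries, and its part in this value was not tested. The other X-linked members, *Plxna3* (-0.38) and *Efnb1* (0.05), were not called. *Plxnb1*, the plexin with the highest mean CPM over the 5 libraries, lay at 384 and 314 CPM in ctrl and at 394, 391 and 408 CPM in cko libraries (log2FC 0.19, adjusted p = 0.236 in edgeR). *Plxnb2* had a log2FC of 0.02 with a standard error of 0.09.

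The changes moved some members far up or down the order of levels. Divided by exon length, *Plxnb2* stood first in ctrl and in cko NSCs, at 46.5 and 47.3 CPM per kb, and *Plxnb1* second. *Plxnb3* stood 3 in ctrl and 5 in cko, at 33.0 and 17.5 CPM per kb. *Nrp2* went from place 38 of 69 to place 14, at 2.75 and 10.6 CPM per kb. *Plxnd1* went from place 11 to place 32, at 10.6 and 3.82 CPM per kb. Neighbours in this order often lay within the spread of the libraries, as did *Plxnb3* and *Sema6d* in ctrl, both at 33.0 CPM per kb.

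**Figure D2:**
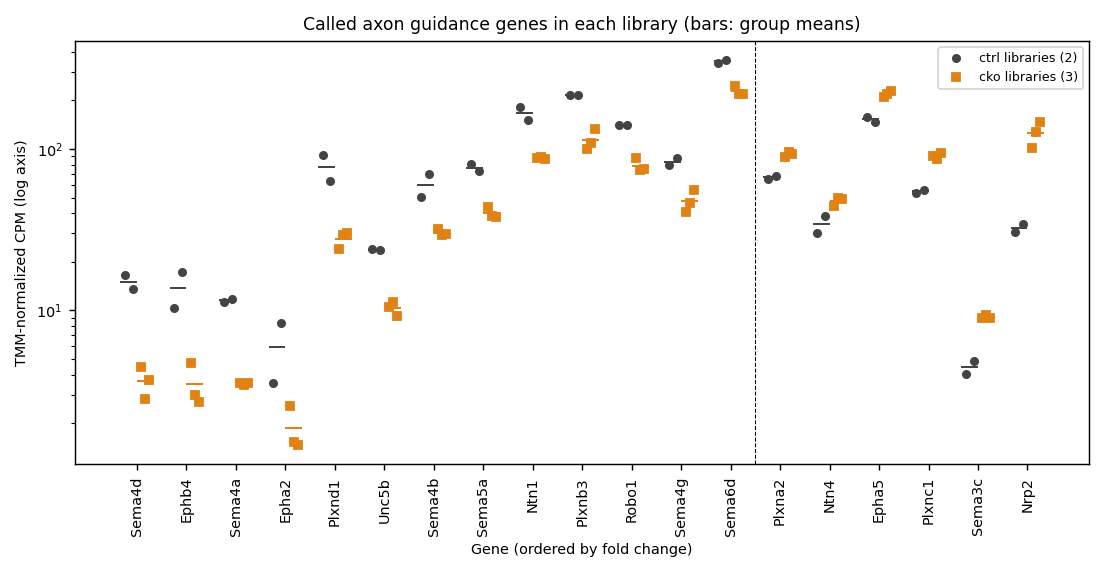
TMM-normalized CPM on a log axis for the 19 called members, ordered by fold change, in the 2 ctrl libraries (grey circles) and the 3 cko libraries (orange squares), with bars for the group means. The dashed line divides the 13 genes that fell from the 6 that rose, and for no gene do the groups overlap. The genes were picked by their call in these same libraries, and 49.7% of all genes tested did not overlap either.

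Ephrins and Eph receptors signal between touching cells. None of the 8 ephrins was called. *Efnb2*, the ligand of EPHB4 and the ephrin with the most reads, lay at 26.6 and 23.3 CPM in ctrl and at 31.2, 34.3 and 30.1 CPM in cko libraries (log2FC 0.35, unadjusted p = 0.0144 and adjusted p = 0.0704 in edgeR). The cko libraries were all above the ctrl libraries, but the difference did not pass the adjustment. The other ephrins had log2FCs from -0.46 for *Efna5* to 0.27 for *Efna2*.

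Of 12 Eph receptors tested, 1 rose and 2 fell. *Epha5*, a receptor of A-type ephrins with the most reads of the family, lay at 158 and 147 CPM in ctrl and at 209, 219 and 227 CPM in cko libraries. The rise was 1.43-fold with little spread in either group (log2FC 0.52, standard error 0.08, adjusted p = 0.00635 in edgeR). *Ephb4* (ENSMUSG00000029710, chromosome 5, 137350109 to 137378669) fell from 10.3 and 17.2 CPM to 4.76, 3.0 and 2.71 CPM, a 3.96-fold change (log2FC -1.98, standard error 0.30, adjusted p = 0.00701 in edgeR). Its exons share 33 bases with *Zan* on the opposite strand, and the other called members whose exons overlap another annotated gene were *Plxnc1* (115 bases with *Gm48718*, same strand) and *Sema4a* (73 bases with *Mir7011*, same strand). *Epha2*, a receptor of ephrin A1, lay at 3.58 and 8.38 CPM in ctrl and at 2.57, 1.54 and 1.47 CPM in cko libraries. The ctrl libraries were 2.34-fold apart, and the call (log2FC -1.69, adjusted p = 0.0333 in edgeR) was lost without ctrl library 3, at -0.96 and an adjusted p of 0.101, and without any of the 3 cko libraries, at adjusted p-values up to 0.132. With the replicate number as a block its adjusted p was 0.0588. *Ephb3* (-0.36) and *Ephb1* (-0.23) had unadjusted p-values of 0.0111 and 0.0434 and missed the adjusted threshold. *Ephb2* lay at 91.6 and 42.2 CPM in the 2 ctrl libraries, with all cko libraries between them. *Epha4* (0.16), *Epha10* (0.20), *Ephb6* (-0.09), *Epha1* (-0.30), *Epha3* (-0.01) and *Epha7* (-0.24) were not called.

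Netrins and their receptors held calls on both sides. *Ntn1* (ENSMUSG00000020902, chromosome 11, 68209364 to 68400823), the secreted netrin that binds DCC and UNC5, fell from 181 and 150 CPM in ctrl to 87.5, 88.8 and 86.9 CPM in cko libraries. The cko libraries were nearly equal and the change was 1.89-fold (log2FC -0.92, standard error 0.09, adjusted p = 0.00192 in edgeR). *Ntn4*, a netrin of basement membranes, lay at 30.1 and 38.5 CPM in ctrl and at 44.1, 49.7 and 48.8 CPM in cko libraries (log2FC 0.47, adjusted p = 0.0400 in edgeR). This call was lost without ctrl library 1 (0.29, adjusted p = 0.0878) and without each cko library, at adjusted p-values from 0.0741 to 0.158. *Ntn3* had a log2FC of 0.09. Per kb of exon, the ratio of *Ntn1* to *Ntn4* was 3.60 and 2.33 in ctrl and 1.18, 1.06 and 1.06 in cko libraries.

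*Unc5b* (ENSMUSG00000020099, chromosome 10, 60762593 to 60831581), a netrin receptor linked to repulsion, lay at 23.8 CPM in both ctrl libraries and at 10.6, 11.3 and 9.28 CPM in the cko libraries. It fell by 1.20 on the log2 scale (standard error 0.13, adjusted p = 0.00229 in edgeR). *Dcc*, the netrin receptor linked to attraction, lay at 125 and 91.8 CPM in ctrl and at 143, 133 and 147 CPM in cko libraries. Its libraries did not overlap either, at a log2FC of 0.38 that did not pass (adjusted p = 0.0913 in edgeR). Without ctrl library 1 the value was 0.61 and passed (adjusted p = 0.00195 in edgeR), and without ctrl library 3 it was 0.18 (adjusted p = 0.186 in edgeR). Per kb of exon, the ratio of *Unc5b* to *Dcc* was 0.401 and 0.546 in ctrl and between 0.133 and 0.178 in cko libraries. *Unc5a* (0.14), *Unc5c* (-0.21) and *Unc5d* (0.50) were not called.

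Among Slits and Robos only *Robo1*, a Slit receptor, was called. It was read at 140 and 141 CPM in ctrl and at 87.7, 73.5 and 75.4 CPM in cko libraries, a log2FC of -0.83 (standard error 0.09, adjusted p = 0.00251 in edgeR). *Robo2* lay at 113 and 61.5 CPM in ctrl, with the 3 cko libraries between them, and *Robo3* had a log2FC of -0.36 at few reads. *Slit1*, the Slit with the most reads, lay at 9.30 and 30.1 CPM in ctrl and at 6.15, 9.82 and 9.79 CPM in cko libraries. Its groups overlapped, at a log2FC of -1.19 (adjusted p = 0.113 in edgeR), which was -0.10 without ctrl library 3 and -1.81 without ctrl library 1 (adjusted p = 0.000802 in edgeR). *Slit2* had a log2FC of -0.04.

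**Figure D3:**
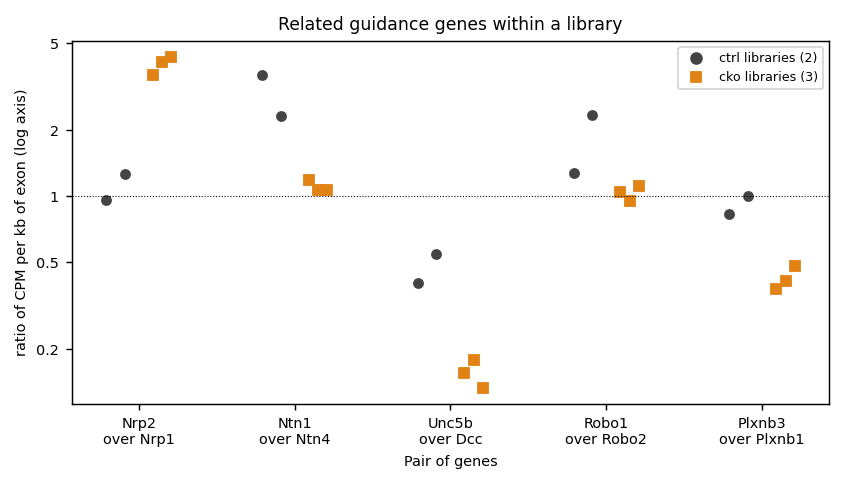
Ratios between 5 pairs of related members within a library, as CPM per kb of exon on a log axis, in the 2 ctrl libraries (grey circles) and the 3 cko libraries (orange squares). The dotted line marks equal levels, and the cko libraries lie above the ctrl libraries for *Nrp2* over *Nrp1* and below them for the other pairs.

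The 5 pairs in the plot of ratios were picked after the values were seen and were not tested. A ratio within a library does not depend on its normalization. Pairs of a ligand and a receptor that fell together were *Sema5a* with *Plxnb3*, *Ntn1* with *Unc5b*, and *Sema4a* with *Plxnd1*. *Sema3c* and *Nrp2*, which encodes a coreceptor of class 3 semaphorins, rose together, as did *Sema3c* and *Plxna2*. Some other pairs did not move together. *Ntn1* fell while *Dcc* was not called. *Sema4d* fell while *Plxnb1* was not called, as did *Sema4g* with *Plxnb2*, *Sema6d* with *Plxna1*, and *Ephb4* with its ligand *Efnb2*. *Plxnc1* rose while *Sema7a* was not called, and *Sema3c* rose while *Plxnd1* fell. Summed per kb over all 35 ligands, the level lay at 199 and 203 CPM per kb in ctrl and at 159, 164 and 161 in cko libraries. Over all 34 receptors it lay at 263 and 243 CPM per kb in ctrl and at 227, 240 and 247 in cko libraries, so that the groups overlapped.

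The 2 ctrl libraries set the error of many members. In 9 of the 63 they were more than 2-fold apart, against 9.35% of all genes tested. *Slit1*, *Sema3b*, *Epha3*, *Epha7*, *Efna3*, *Epha2*, *Sema3e*, *Epha1* and *Ephb2* made up this group, and only *Epha2* was called. The 6 members that the filter removed were *Epha6*, *Epha8*, *Sema3g*, *Slit3*, *Ntn5* and *Robo4*, with at most 1, 2, 5, 9, 11 and 12 counts in any library. *Slit3* had 9 and 2 counts in the ctrl libraries and 0 counts in each cko library, which allows a level of up to 0.129 to 0.168 CPM there.

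Other genes of the pathway were read from a list of 72 coreceptors, further guidance molecules and cytoplasmic effectors. Of the 71 tested, 10 were called higher and 12 lower in cko NSCs, against 7.86% and 8.57% of all genes tested, with a median log2FC of -0.01. Among those called higher, *Draxin*, a secreted guidance molecule that binds DCC and netrin 1, had the largest change, from 87.1 and 91.0 CPM in ctrl to 184, 228 and 249 CPM in cko libraries (log2FC 1.31, adjusted p = 0.00197 in edgeR). It was followed by *Flrt3* (1.15), an adhesion protein that binds UNC5 receptors, the kinase gene *Pak1* (0.74) and *Crmp1* (0.72), a mediator of semaphorin signals. The largest falls among called partners were those of *Flrt1* (-1.33), of *Mical2* (-1.13), which encodes an actin-oxidizing enzyme, of the netrin G gene *Ntng2* (-0.89) and of *Chn2* (-0.82), a chimaerin that inactivates RAC. *Flrt1* and *Flrt3*, which belong to the same family, thus moved in opposite directions. *Ptk2*, the host of the deleted miRNA and an effector of netrin signalling, had a log2FC of -0.01 (adjusted p = 0.943 in edgeR). The miRNA itself was not among the genes counted, so the deletion could not be checked in these libraries.

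Of the 19 calls, 14 were also past the threshold in each of 11 other fits, which changed the tool, the scaling, the filter, the pairing or the libraries. The 5 others were *Epha2*, *Ntn4*, *Plxna2*, *Sema3c* and *Sema4g*, each at the values given above. None of the 19 changed direction in any of these fits. Without cko library 2 the counts were 3 higher and 11 lower members, and without cko library 3 they were 3 and 12. Without ctrl library 1 there were 10 higher and 15 lower members, with *Dcc*, *Efnb2*, *Plxnb1*, *Plxna1* and *Slit1* among those gained. Without ctrl library 3 the members gained were *Plxna3*, *Plxna4*, *Sema3b*, *Sema6a*, *Ephb2*, *Robo2* and *Unc5c*. *Ephb2* and *Epha3* were also gained without ctrl library 1. In *Ephb2*, *Robo2*, *Unc5c* and *Epha3* all cko libraries lay between the 2 ctrl libraries, so the direction of these gains depends on the ctrl library kept. *Ephb2*, at 70.8 to 77.6 CPM in cko libraries, lay below ctrl library 1 (91.6 CPM) and above ctrl library 3 (42.2 CPM).

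**Figure D4:**
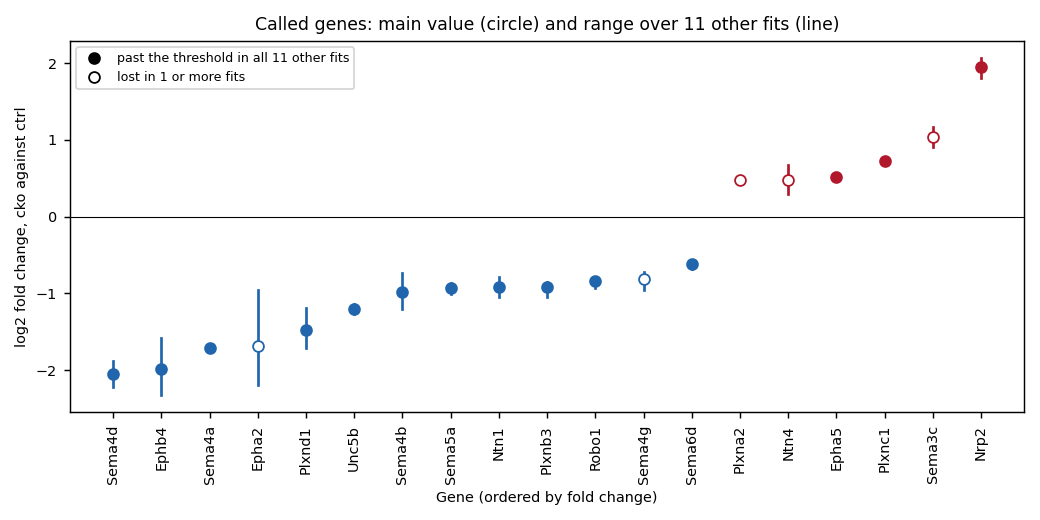
The log2FC of cko against ctrl NSCs for the 19 called members (circles) and its range over 11 other fits (lines), ordered by value. Filled circles mark the 14 members past the threshold in every fit, and no line crosses 0.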

How the data were processed

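RNA-seq of cultured NSCs was read from the table of raw counts per gene that the authors deposited. Per the methods, reads were checked with FastQC, filtered with NGSQC and aligned to mm10 with HISAT2, while the submitters' processing notes name GRCm39. The counting tool, annotation and strand setting are not given in the sources used here, so overlapping genes and near-identical copies are uncertain. Symbols, positions and exon lengths came from GENCODE M21 (GRCm38), which matched 31836 of 32493 gene IDs. The other 657 held at most 0.299% of a library's counts.

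Counts of 2 ctrl and 3 cko libraries were filtered by edgeR 4.0.16 (R 4.3.3) with genotype as group, normalized by TMM and tested by its quasi-likelihood test over 16710 genes, with Benjamini-Hochberg adjustment and a threshold of 0.05. Values are CPM, or CPM per kb of merged exons, and errors after ± are SD. The standard error of a log2FC is its absolute value divided by the square root of the F statistic. Named genes were all called members, the member of each family with the highest mean CPM, members with an unadjusted p under 0.05 or a log2 fold change beyond 0.9, those removed by the filter, and the 4 called partners with the largest change in each direction. Other members are given mostly by fold change, some ephrins by their range only. Seed matches of the miRNA were not analysed here. Promoter windows came from RefSeq (GRCm38.p6). The members and lists were chosen with earlier results of these data known. The steps were tested on simulated data. Alternatives were DESeq2 1.42.0, median-of-ratios scaling, testing without a filter, a minimum of 10 counts per library, the replicate block, all 6 columns, leaving out each library (a lone ctrl library was taken to vary as the cko libraries do), and the study's threshold. Figures were drawn with matplotlib 3.10.9.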

Additional observations from a re-analysis of the deposited data

How the results depend on the processing

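The 6 higher and 13 lower members became 10 and 21 with all 6 columns, the averaged one included. Without a filter 21 members were lower, and at the study's threshold 2 were higher. Leaving out each library in turn gave between 3 and 10 higher and between 11 and 18 lower members. The 22 pathway partners called became 14 with the replicate block, 4 at the study's threshold and between 7 and 28 when each library was left out, with the lowest number without cko library 2 or 3. DESeq2, median-of-ratios scaling and a minimum of 10 counts in every library kept these counts within 1.5 times the main ones. Over the alternatives, 324 of 383 values of named members kept their direction and their side of the threshold, 21 lost and 38 gained a call, and 0 changed sign. These values leave out members such as *Ephb2*, *Robo2*, *Unc5c* and *Epha3*, whose cko libraries all lay between the 2 ctrl libraries. For such members the direction depends on which ctrl library is kept. The cause of these shifts was not tested.

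Replicate numbers are shared by the genotypes, but no label says what a number marks. Across 16710 genes, which are not independent replicates, the deviations of ctrl and cko libraries correlated at r = 0.143 for number 1 and 0.0507 for number 3. With the replicate block, in which cko library 2 has no partner, *Epha2* was lost and *Ephb3*, *Sema3f* and *Slit1* were gained at adjusted p-values of 0.0378, 0.0118 and 0.0141 in edgeR. The other 18 calls held. With 2 ctrl libraries the spread of ctrl NSCs is known poorly, and few reads limit the members under about 2 CPM.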
